A study of Mus musculus with 16 samples.

Results

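Promoters that carried H3K4me3 but neither RNA polymerase II (Pol II) nor H3K27ac were examined in cultured mouse CD8+ T cells, with and without an inhibitor of the histone demethylase LSD1. Each promoter was a window that reached 1 kb to both sides of a transcription start site (TSS), with 1 window for every distinct TSS in RefSeq's curated mm10 transcripts. It was selected if an H3K4me3 peak overlapped it in both treatments and no Pol II peak and no H3K27ac peak did so in either. Of 31603 promoters of 26142 genes, 15509 had H3K4me3 in both treatments, and 5358 of these, at 4592 genes, passed the rule. They are called negative promoters below. The other 10151, which had a Pol II or an H3K27ac peak in at least 1 list, are called positive promoters. Negative promoters thus made up 34.5% of all promoters with H3K4me3 in both treatments and 17% of all promoters.

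The cells were splenic CD8+ T cells of OT1 mice, which carry a transgenic T cell receptor for an ovalbumin peptide, so that nearly all of the T cells share 1 specificity. All groups were activated for 48 h with plate-bound anti-CD3 (2 μg/ml), soluble anti-CD28 (2 μg/ml) and IL-2 (20 ng/mL), and were then expanded with IL-2 for 3 days. The GSK group received 0.5 μM GSK2879552, an irreversible LSD1 inhibitor, during activation and expansion, and the Veh group received vehicle. ChIP-seq with antibodies to LSD1, H3K4me1, H3K4me2, H3K4me3, H3K27ac and Pol II gave 12 peak lists, 1 library for each antibody and treatment. With no replicates there was no spread to compare a difference with, and no test was made.

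Methyl groups on lysine 4 of histone H3 mark regulatory DNA. H3K4me3 is laid down at active promoters, and also at promoters rich in CpG dinucleotides whose genes are silent, where methyltransferase complexes are brought in by proteins that bind unmethylated CpG. H3K4me1 is the usual mark of enhancers and of the outer flanks of active promoters, and H3K4me2 is found at both kinds of element. The demethylase LSD1 acts on H3K4me1 and H3K4me2 but cannot act on H3K4me3, and it works in the CoREST complex together with histone deacetylases. H3K27ac and Pol II accompany transcription. H3K27me3, which marks many silent CpG-rich promoters together with H3K4me3, was not among the antibodies.

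The promoters were chosen by their H3K4me3, Pol II and H3K27ac peaks, so these 3 are described and are not results. LSD1, H3K4me1 and H3K4me2 peaks, DNA sequence and gene function took no part in the rule. A missing peak means that no peak passed the cutoff of a list, not that the protein or mark was absent. The GSK H3K27ac list was short, with 2751 peaks against 7410 in the Veh list. It came from a library with far fewer unique read pairs, per the study's methods. That list had little weight in the rule, since 5380 promoters were left before it was applied and 5358 after. The largest step was the Veh Pol II list, which left 6740 of 15509, and the GSK Pol II list then left 5952. Among the promoters just outside, 2219 positive promoters were kept out by a single peak. The weakest of these peaks were GSK Pol II peaks, with a fold of 2.40 (−log10 p 3.03) at Capn2 and of 2.28 (3.04) at Cdk9 and the microRNA gene Mir2861, which share 1 peak. Just inside, the nearest Pol II or H3K27ac peaks began 1001 bp from the TSS of Gm32633 and 1002 bp from those of Gcat and Gm39918. A Pol II peak lay within 5 kb of the TSS at 564 negative promoters (10.5%) and an H3K27ac peak at 343 (6.40%). At 214 (3.99%), the H3K4me3 peak itself reached a Pol II or H3K27ac peak beyond the window.

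The negative promoters merged into 4279 distinct loci, since TSSs can lie close together. Of their 4592 genes, 3852 had every annotated TSS among the negative promoters, and 256 had Pol II or H3K27ac at another TSS. Protein-coding transcripts started at 4838 (90.3%), about the share in positive promoters (91.0%). The CD8 T cell label was checked on marker promoters. Of 14 TSSs of 10 CD8 T cell marker genes, 11 had H3K4me3 in both treatments, and 10 of these carried Pol II or H3K27ac. Cd8a was the exception and is described below. Of 23 TSSs of 19 marker genes of other blood cells, 5 had H3K4me3 in both treatments, and all 5 were negative promoters. Among the rest, the myeloid gene Spi1 had Pol II at 1 of its 3 TSSs and H3K27ac at 1. Of 13 TSSs of stromal and epithelial markers, 3 had H3K4me3 in both, and again all 3 were negative promoters.

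The DNA of these promoters ranged from CpG islands to sequence with almost no CpG, as the 200 bases that precede the TSS of 7 of them show. They were chosen to span that range and the gene groups described below. Sequences are RefSeq GRCm38.p6, written 5′ to 3′ in the direction of transcription, with every CpG in capitals. Pde8a (chr7:81213065-81213264, plus strand) had one of the highest LSD1 folds. Cebpa (chr7:35119093-35119292, plus strand) encodes a transcription factor of myeloid cells, and Rcor2 (chr19:7267194-7267393, plus strand) a member of the CoREST family. Epcam (chr17:87635779-87635978, plus strand) encodes an epithelial adhesion molecule. Ifng (chr10:118440846-118441045, plus strand) encodes interferon gamma, and Havcr2 (chr11:46454731-46454930, plus strand) the inhibitory receptor TIM-3. Gbp2 (chr3:142620463-142620662, plus strand) encodes a GTPase induced by interferon.
Pde8a: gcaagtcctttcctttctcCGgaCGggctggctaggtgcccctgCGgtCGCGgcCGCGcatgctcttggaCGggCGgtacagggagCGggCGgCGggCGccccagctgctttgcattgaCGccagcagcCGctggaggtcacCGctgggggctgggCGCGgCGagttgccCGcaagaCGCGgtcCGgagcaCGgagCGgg
Cebpa: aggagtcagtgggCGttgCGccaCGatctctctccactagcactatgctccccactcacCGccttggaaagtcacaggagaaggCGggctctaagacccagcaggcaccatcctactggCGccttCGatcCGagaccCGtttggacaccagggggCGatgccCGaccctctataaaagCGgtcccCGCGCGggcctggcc
Rcor2: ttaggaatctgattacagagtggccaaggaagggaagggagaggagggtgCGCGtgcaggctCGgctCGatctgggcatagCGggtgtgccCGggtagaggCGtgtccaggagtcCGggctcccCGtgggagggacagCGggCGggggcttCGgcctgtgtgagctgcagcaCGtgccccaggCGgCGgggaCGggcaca
Epcam: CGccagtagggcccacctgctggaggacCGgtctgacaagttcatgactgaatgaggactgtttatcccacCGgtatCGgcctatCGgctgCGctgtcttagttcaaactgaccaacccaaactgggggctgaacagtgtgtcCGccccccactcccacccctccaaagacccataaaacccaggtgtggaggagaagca
Ifng: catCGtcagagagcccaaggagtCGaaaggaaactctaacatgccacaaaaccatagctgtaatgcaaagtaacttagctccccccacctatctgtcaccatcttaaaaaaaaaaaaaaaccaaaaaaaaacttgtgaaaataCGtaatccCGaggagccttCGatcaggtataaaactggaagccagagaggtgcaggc
Havcr2: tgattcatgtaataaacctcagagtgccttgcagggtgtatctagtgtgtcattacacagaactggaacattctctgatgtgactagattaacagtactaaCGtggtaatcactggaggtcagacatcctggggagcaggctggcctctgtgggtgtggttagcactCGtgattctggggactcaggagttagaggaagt
Gbp2: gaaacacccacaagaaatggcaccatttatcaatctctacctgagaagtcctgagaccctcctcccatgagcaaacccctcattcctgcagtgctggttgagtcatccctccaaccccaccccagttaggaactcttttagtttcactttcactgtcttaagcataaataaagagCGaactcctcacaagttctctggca
Over these 200 bases, Pde8a held 25 CpGs, Rcor2 16, Cebpa 15, Epcam 7, Ifng 5, Havcr2 2 and Gbp2 1. All 7 carried an H3K4me3 peak in both treatments, as the rule required.

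Negative promoters were somewhat poorer in CpG than positive ones. The ratio of observed to expected CpG over the 2 kb window had a median of 0.60 in negative promoters (quartiles 0.470 and 0.717) and 0.651 in positive promoters (0.537 and 0.755). A ratio under 0.4 was found at 14.7% of negative promoters (95% interval 13.8 to 15.7) and at 8.97% of positive promoters (8.43 to 9.55). Over all promoters, with or without H3K4me3, it was found at 46.7%. A ratio of at least 0.6 was found at 50.0% of negative, 61.9% of positive and 31.9% of all promoters, so negative promoters stood between positive and average promoters. The median GC content was 55.7% in negative and 53.8% in positive promoters. All intervals here are Wilson intervals for a share, or Newcombe intervals for a difference of shares. They cover counting error over promoters only, and neighbouring TSSs are not independent.

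Negative promoters had fewer divergent neighbours and fewer ETS motifs than positive promoters, and were near all promoters in both. A TSS of another gene that pointed away on the opposite strand lay within 1 kb of 552 negative promoters (10.3%) and of 24.6% of positive promoters, a difference of −14.3 percentage points (−15.5 to −13.1). Motifs were counted on both strands from 250 bases before to 50 bases after the TSS. The core site of ETS factors, a family with major roles in lymphocytes (CCGGAAG), was present at 504 negative promoters, or 9.41% (8.65 to 10.2), and at 23.3% of positive promoters (22.5 to 24.1). The share among all promoters was 10.4%. Without promoters that had a divergent neighbour, the ETS core was found at 9.01% of negative and 21.0% of positive promoters. The NRF1 core (GCGCATGC) was found at 3.62% and 6.19%, against 3.16% of all promoters. The cAMP response element (TGACGTCA) was found at 2.58% and 3.92% (2.21% of all promoters), and the CCAAT box (CCAAT) at 34.2% and 38.6% (37.3%). The GC box (GGGCGG) was slightly more frequent in negative promoters, at 68.6% against 66.4%, with 43.2% over all promoters. For the TATA box (TATAAA), at 5.97% and 6.29%, the interval of the difference ran from −1.09 to 0.495 percentage points. For the E-box (CACGTG), at 10.1% and 10.7%, it ran from −1.60 to 0.419. A part of the REST site (TTCAGCACC) was found at 0.392% and 0.266%, and the GFI1 core (AAATCNC) at 8.08% and 9.36%. The REST interval, from −0.0555 to 0.349 percentage points, included 0. All promoters gave 12.3% for the TATA box, 7.67% for the E-box, 0.383% for the REST letters and 11.1% for the GFI1 core. A motif match describes the letters in the window and is not a binding site. GC-rich motifs overlap CpG, so their shares move with CpG content.

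Among promoters with H3K4me3, the share that was negative was higher on the X chromosome than on the autosomes. Of 495 X-linked promoters with H3K4me3, 238 were negative, or 48.1% (43.7 to 52.5), against 34.5% over all chromosomes. On autosomes the share ran from 31.0% on chromosome 16 to 38% on chromosome 12. Cxcr3, Clcn5, Mtm1 and Psmd10 were among the X-linked promoters. Across the alternatives tried, the negative share on the X stood between 44.4% and 54.5%, and in each of them it was above the share over all chromosomes. X-linked promoters made up 4.44% of negative and 2.53% of positive promoters, and 4.21% of all promoters with or without H3K4me3.

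H3K4me3 peaks of negative promoters were narrower than those of positive promoters, with a similar median fold and a lower −log10 p. Their H3K4me3 fold enrichment over background had a median of 5.90 in Veh cells (quartiles 4.78 and 7.21) and 6.13 in GSK cells (5.01 and 7.46). Positive promoters had medians of 5.90 and 6.02. The width of the peak had a median of 930 bp in Veh cells (669 and 1270 bp) and 959 bp in GSK cells, while in positive promoters it was 1440 and 1430 bp. A width under 500 bp in Veh cells was found at 12.8% of negative promoters and 0.680% of positive ones, and a width of at least 2000 bp at 5.26% and 17.8%. The median −log10 p of the H3K4me3 peak was 35.5 and 39.4 in negative promoters and 90.5 and 88.9 in positive ones. When all 15509 promoters were sorted into 5 equal bins of Veh H3K4me3 width, 74.0% of the narrowest and 13.8% of the widest bin were negative. In 5 bins of fold, the share stayed between 33.8% and 35.8%. H3K4me3 took part in the rule, so these values describe the promoters and were not tested.

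The strongest and the weakest H3K4me3 peaks lay at different kinds of gene. Srp54c and Srp54b, near-identical paralogs on chromosome 12 for a subunit of the signal recognition particle, had the highest folds. Srp54c (TSS at 55230377, plus strand) had 18.4 in Veh and 19.1 in GSK cells over 452 and 465 bp, and Srp54b (55155104, plus strand) had 17.3 and 18.7 over 511 and 464 bp. Reads mapped to one of these copies cannot be fully told from the other, so both values are uncertain. Gm13275 on chromosome 4 followed with 13.7 and 15.7. The divergent pair Gm3417 and 9030025P20Rik on chromosome 17 shared a peak with folds of 13.5 and 13.8. Fcsk, which encodes fucokinase, had 12.4 and 14.1. These highest peaks were between 346 and 538 bp wide. At the other end, Dennd2d had H3K4me3 folds of 1.69 and 1.87, Lpxn 1.99 and 2.02, and Fam189b 2.15 and 1.93. The widest peaks were at Tgif1 (4373 bp in Veh and 4396 bp in GSK cells), Trim8 (4387 and 4361 bp), Pim1 (4271 and 4142 bp), Nr4a3 (5042 and 3859 bp) and S1pr1 (3841 and 4070 bp). All 5 had low folds, from 2.20 to 2.59. All 5 peaks also reached a Pol II or H3K27ac peak beyond the window, and Tgif1 and Pim1 had a further TSS with Pol II or H3K27ac. The widest peaks thus lay beside transcription marks that the window did not take in.

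H3K4me3 itself differed little between treatments. The log2 ratio of GSK to Veh fold had a median of 0.03 in negative promoters (quartiles −0.06 and 0.14) and 0.02 in positive promoters. The fold was at least 1.5 times higher in GSK cells at 32 negative promoters (0.597%) and as much lower at 1. Over all promoters with H3K4me3, it was higher at 0.239% and lower at 0.0258%, and in positive promoters at 0.0493% and 0.0296%. The width grew by 1.5 times or more at 371 (6.92%) and shrank as much at 126 (2.35%). In positive promoters, 0.867% grew and 0.532% shrank.

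To see whether promoters without Pol II or H3K27ac were bound by LSD1, LSD1 peaks were counted in both groups. LSD1 was found at most negative promoters, though less often than at positive ones. In Veh cells, 3257 of 5358 negative promoters had an LSD1 peak, or 60.8% (59.5 to 62.1), against 71.8% of positive promoters (70.9 to 72.7) and 68.0% of all promoters with H3K4me3. The difference was −11 percentage points (−12.6 to −9.46). In GSK cells, 3756 negative promoters had an LSD1 peak, or 70.1% (68.9 to 71.3), against 81.9% of positive promoters and 77.8% of all. Where LSD1 was called, its strength was alike, with a median fold of 4.45 in negative and 4.44 in positive promoters in Veh cells, and of 5.0 in both in GSK cells.

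The gap in LSD1 varied with the width of H3K4me3. In the narrowest of the 5 bins, LSD1 was found at 48.3% of negative and 60.3% of positive promoters, a difference of −12 percentage points (−15.9 to −8.03). In bin 3 the shares were 75.9% and 74.5%, in bin 4 they were 74.3% and 75.7%, and both intervals included 0 (−2.19 to 4.70 and −5.66 to 2.44). In the widest bin negative promoters were lower again, at 60.9% against 69.5%. LSD1 also followed CpG content. From the lowest to the highest of 5 equal bins of the CpG ratio, the share of negative promoters with Veh LSD1 rose from 38.8% to 54.7%, 67.5%, 73.0% and 84.9%. In the highest bin, positive promoters had 83.5%, and the difference of 1.32 percentage points had an interval from −1.61 to 4.06. The bins are sets of promoters in the same libraries, and the cause of the gap was not tested.

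**Figure D1:**
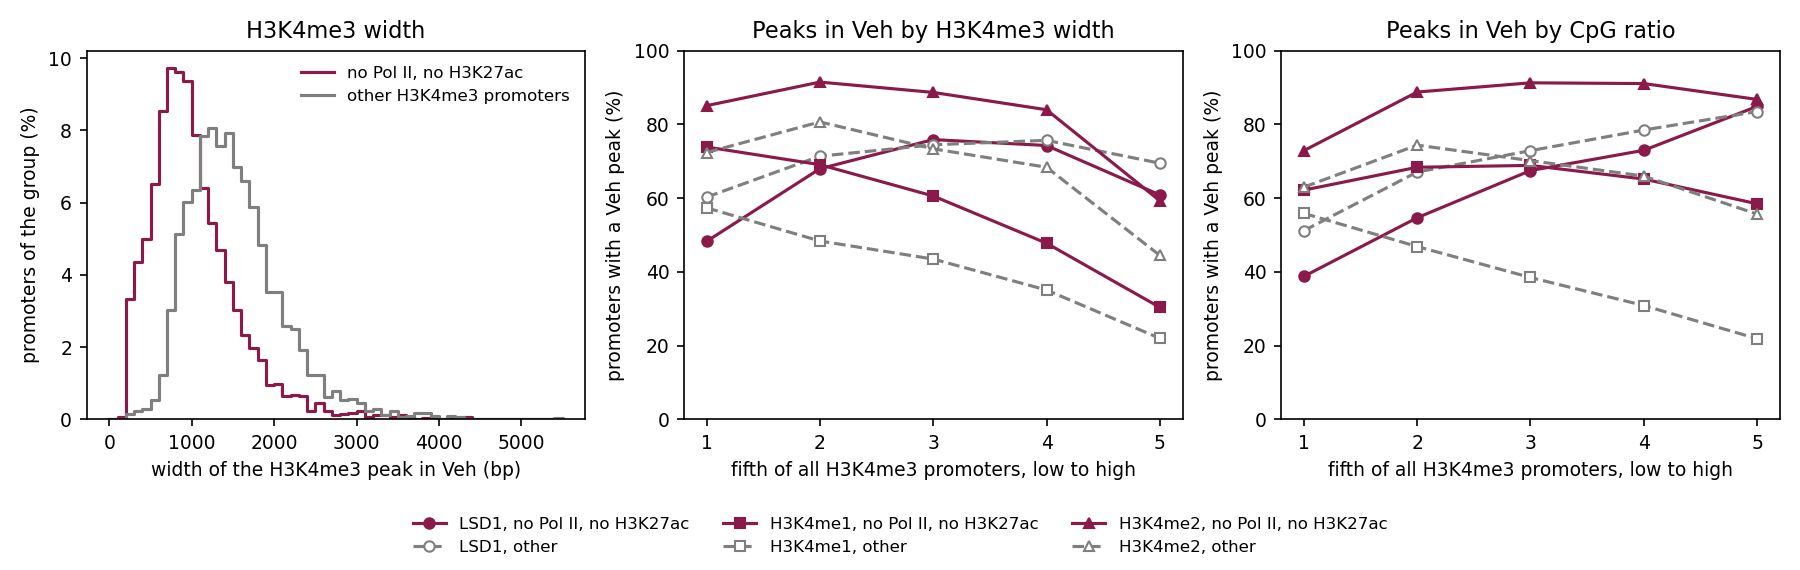
Left, width of the H3K4me3 peak in Veh cells in steps of 100 bp, as a share of negative promoters (5358, dark red) and positive promoters (10151, grey). Middle and right, share of promoters with an LSD1, H3K4me1 or H3K4me2 peak in Veh cells (%) in 5 equal bins of all promoters with H3K4me3, ordered by H3K4me3 width or CpG ratio. H3K4me1 and H3K4me2 of negative promoters lie above those of positive promoters in every bin, while LSD1 lines meet in the middle bins of width and the highest bin of CpG.

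With LSD1 inhibition, LSD1 stayed at most negative promoters and was called at further ones. Of the 5358, 2812 had LSD1 in both treatments, 445 (8.31%) had it in Veh cells alone, 944 (17.6%) in GSK cells alone and 1157 in neither. Over all promoters with H3K4me3 the Veh-only share was 7.40% and the GSK-only share 17.2%. Of the 3257 negative promoters with Veh LSD1, 86.3% (85.1 to 87.5) kept it in GSK cells, against 90.4% (89.7 to 91.0) of positive promoters, a difference of −4.02 percentage points (−5.41 to −2.69). Within bins of H3K4me3 width this difference changed sign, from −6.29 (−10.3 to −1.98) in the narrowest to 4.43 (1.65 to 6.56) in bin 4, and was −2.95 (−7.27 to 0.308) in the widest. The net change in negative promoters, GSK-only minus Veh-only, was 9.31 percentage points (8.02 to 10.6), and 10.0 (9.16 to 10.9) in positive promoters. The GSK LSD1 list was not longer than the Veh list, with 19919 against 21252 peaks.

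The strongest LSD1 peak among negative promoters lay between Chp1, for a calcineurin-like calcium-binding protein, and Exd1, a germline gene of the piRNA pathway, whose TSSs on chromosome 2 point apart (119547707, plus strand, and 119547627, minus strand). Its LSD1 fold was 21.2 in Veh and 21.7 in GSK cells, at a −log10 p of 188 and 169. Boll, a germline RNA-binding protein, had 12.4 and 15.4 at its TSS at 55363753 on chromosome 1, and another TSS of Boll had Pol II. Pcx, which encodes pyruvate carboxylase, had 11.2 and 16.1, and Pde8a, a cAMP phosphodiesterase, had 11.9 and 14.2. Pde8a had a CpG ratio of 0.996. The H3K4me3 folds at these promoters were not high, between 4.37 and 7.5.

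At single promoters, LSD1 was called in 1 treatment only. The highest Veh-only folds were 9.52 at Zfp383, 8.0 at Arl14ep, 7.74 at Rtn4r, which encodes the Nogo receptor, 7.0 at Aktip and 6.55 at Ascl4. GSK-only folds reached 9.33 at Cep43, 8.17 at Thsd1, 7.78 at the noncoding gene 2210416O15Rik, 7.68 at Specc1 and 7.64 at Ehbp1. H3K4me3 stayed within 1.5 times its Veh fold at all 10, for example 6.32 and 6.25 at Zfp383 and 6.02 and 6.26 at Cep43.

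Within 1 kb of the TSS, H3K4me1 and H3K4me2, the substrates of LSD1, were both more frequent at negative than at positive promoters. H3K4me2 was called at 4555 negative promoters in Veh cells, or 85.0% (84.0 to 85.9), against 65.8% (64.8 to 66.7) of positive promoters and 72.4% of all with H3K4me3, a difference of 19.3 percentage points (17.9 to 20.6). H3K4me1 was called at 3465, or 64.7% (63.4 to 65.9), against 37.7% (36.7 to 38.6) of positive promoters and 47.0% of all, a difference of 27 percentage points (25.4 to 28.6). In GSK cells the differences were 29.4 (27.8 to 30.9) for H3K4me2 and 23.5 (21.9 to 25) for H3K4me1. GSK shares over all promoters with H3K4me3 were 52.0% and 56.9%. Both marks together were found at 60.2% of negative and 29.9% of positive promoters in Veh cells. H3K4me3 with none of LSD1, H3K4me1 and H3K4me2 in either treatment was found at only 196 negative promoters (3.66%), against 3.27% of positive ones.

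Among the 3 kinds of positive promoter, H3K4me1 was highest with Pol II alone and lowest with both. H3K4me1 in Veh cells was found at 45.5% of the 3699 promoters with Pol II and no H3K27ac, at 38.4% of the 594 with H3K27ac and no Pol II, and at 32.7% of the 5858 with both. H3K4me2 was found at 78.3%, 59.4% and 58.4%, and LSD1 at 70.0%, 58.2% and 74.3%. Negative promoters were thus above all 3 kinds in H3K4me1 and H3K4me2. In LSD1 they were below both kinds with Pol II, and close to those with H3K27ac alone.

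**Figure D2:**
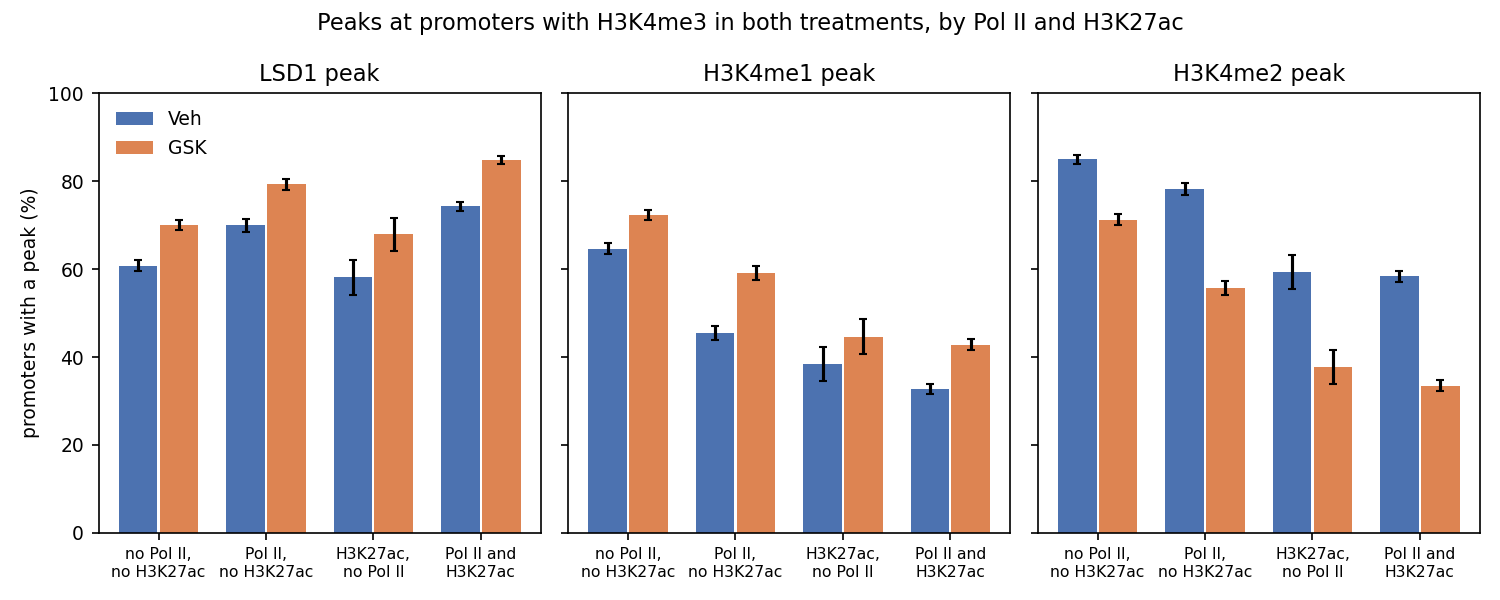
Share of promoters (%) with an LSD1, H3K4me1 or H3K4me2 peak in Veh (blue) and GSK (orange) cells, for the 5358 negative promoters (left pair of bars) and 3 kinds of positive promoter. Error bars are Wilson 95% intervals over promoters of 1 library. H3K4me1 falls from 64.7% at negative promoters to 32.7% at promoters with both Pol II and H3K27ac, and H3K4me2 from 85.0% to 58.4%.

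The higher shares held at equal width of H3K4me3. In the narrowest bin, H3K4me1 was at 73.9% of negative and 57.4% of positive promoters, and in the widest at 30.4% and 22%. H3K4me2 was at 85.1% and 72.4% in the narrowest and at 59.3% and 44.5% in the widest. In bins of CpG, the gap in H3K4me1 widened from 6.25 percentage points (2.78 to 9.69) in the lowest to 36.6 (32.9 to 40.2) in the highest, where positive promoters had 21.9% and negative ones 58.5%.

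The position of H3K4me1 differed between the groups. In positive promoters it lay on either side of the TSS, with most coverage at 750 bp upstream (13.6% of promoters in Veh cells) and 1150 bp downstream (13.7%), and it covered the TSS itself at only 5.31% (4.89 to 5.76). The downstream summit thus lay outside the window of 1 kb. At 1550 bp downstream, Veh H3K4me1 covered 11.5% of positive and 8.14% of negative promoters, and at 1550 bp upstream 9.88% and 5.38%. The gap in H3K4me1 shares therefore depends on the window. In negative promoters H3K4me1 was centred near the TSS, with most coverage at 250 bp downstream (37.0%), and it covered the TSS at 1802, or 33.6% (32.4 to 34.9). In GSK cells the TSS was covered at 40.8% and 6.95%. The gap was present in every bin of H3K4me3 width, from 46.0% against 21.8% in the narrowest to 7.03% against 0.935% in the widest. H3K4me2 covered the TSS at 52.2% of negative and 29.6% of positive promoters in Veh cells, H3K4me3 at 74.0% and 87.5%, and LSD1 at 35.7% and 45.0%. All 4 lists thus peaked within 250 bp downstream of the TSS of negative promoters. In bulk cells, H3K4me1 and H3K4me3 on the same DNA cannot be told from the 2 marks on different cells or alleles.

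**Figure D3:**
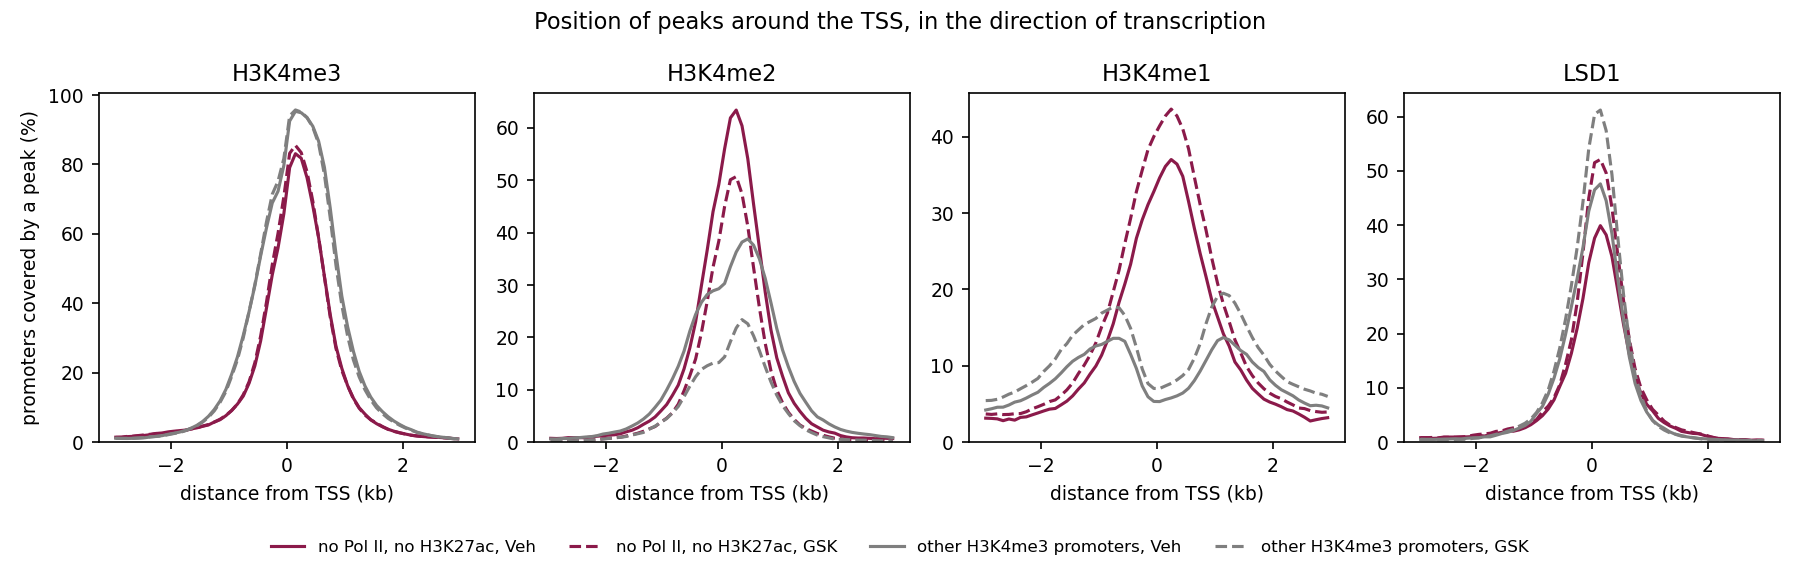
Share of promoters (%, own scale in each panel) covered by a peak at each distance from the TSS (kb, negative is upstream), in steps of 100 bp, for negative promoters (dark red) and positive promoters (grey) in Veh (solid) and GSK (dashed) cells. H3K4me1 has 1 central summit in negative promoters and 2 flanking summits with a dip at the TSS in positive promoters.

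After LSD1 inhibition, fewer negative promoters had an H3K4me2 peak and more had an H3K4me1 peak, but both shifts went with the length of the lists. Of the 5358, 3711 had H3K4me2 in both treatments, 844 (15.8%) had it in Veh cells alone, 107 in GSK cells alone and 696 in neither. Over all promoters with H3K4me3, 23.5% had H3K4me2 in Veh cells alone and 3.11% in GSK cells alone. The net change was −13.8 percentage points (−14.4 to −13.0) in negative and −23.9 (−24.6 to −23.2) in positive promoters. The GSK H3K4me2 list held 9437 peaks and the Veh list 15219. With both lists cut to 9437 peaks by −log10 p, and those of the other antibodies cut likewise (which gave 5633 negative promoters), the sign turned, and the net change was 1.44 percentage points (0.341 to 2.52) in negative and 2.34 (1.34 to 3.33) in positive promoters.

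For H3K4me1, 3216 negative promoters had it in both treatments, 249 (4.65%) in Veh cells alone, 659 (12.3%) in GSK cells alone and 1234 in neither. The shares over all promoters with H3K4me3 were 6.07% and 16.0%. Its net change was 7.65 percentage points (6.64 to 8.60) in negative and 11.2 (10.3 to 12) in positive promoters. With lists of equal length, 34387 peaks each, it was −0.0533 (−1.14 to 1.03) and 4.48 (3.53 to 5.41). The rise of H3K4me1 at negative promoters was thus within counting error once the lists were of equal length.

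Retention of H3K4me2 differed more than its net change. Of the negative promoters with Veh H3K4me2, 81.5% (80.3 to 82.6) had it in GSK cells, against 58.1% (56.9 to 59.2) of positive promoters. With lists of equal length the values were 88.1% (87.0 to 89.0) and 71.2% (69.7 to 72.6), so retention was higher at negative promoters in both cases. H3K4me2 peaks of negative promoters were also stronger, with a median Veh fold of 5.09 against 4.40. For H3K4me1 the retention was 92.8% and 81.9%, a difference of 10.9 percentage points (9.44 to 12.4).

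Negative promoters with and without LSD1 were then compared, on the full lists. Among the 2812 with LSD1 in both treatments, 91.8% (90.7 to 92.7) had Veh H3K4me2 and 67.8% Veh H3K4me1. Among the 1157 with LSD1 in neither, the shares were 67.2% (64.5 to 69.9) and 55.2%. The H3K4me2 net change was −9.0 percentage points (−9.89 to −7.92) where LSD1 was in both, −21.1 (−22.0 to −18.7) where it was in Veh cells only, −15.3 (−16.6 to −13.3) where it was in GSK cells only and −21.3 (−22.7 to −19.3) where it was in neither. H3K4me1 gave 7.08, 8.54, 7.10 and 9.16 percentage points in the same order, with intervals that all overlapped. At the 445 promoters that lost the LSD1 peak, the net change of both substrate marks thus lay within the intervals of promoters without LSD1. H3K4me2 of promoters with LSD1 in both treatments was the most often retained, at 87.9% (86.6 to 89.1), and that of promoters without LSD1 the least, at 64.8% (61.4 to 68.1). In positive promoters the same states were highest and lowest, at 61.5% (60.1 to 62.9) and 45.6% (41.6 to 49.8).

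At the 12 promoters with the highest fold of a substrate mark called in 1 treatment alone, LSD1 took several forms, but at none of the 12 was it called in Veh cells alone. H3K4me2 was in Veh cells only at Il20ra (fold 8.07), which encodes a cytokine receptor chain, Paqr5 (7.80) and Lpin3 (7.32). It was in GSK cells only at S1pr3 (7.02), a sphingosine 1-phosphate receptor, Tlr5 (6.83), the flagellin receptor, and Mir193b (6.59). LSD1 was called in GSK cells only at Il20ra (3.81), Lpin3 (4.63) and S1pr3 (4.02), and in neither treatment at Paqr5, Tlr5 and Mir193b. H3K4me1 was in Veh cells only at Gm13275 (6.85), Atrnl1 (6.83) and Mtm1 (6.58), and in GSK cells only at Nfxl1 (6.79), Mlf1 (6.46) and Gm13003 (6.0). LSD1 was in both treatments at Atrnl1, Mtm1, Nfxl1 and Mlf1, in GSK cells only at Gm13275 and in neither at Gm13003.

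The share of negative promoters differed between gene lists, some far above the background, some far below it and others near it. The counts below are promoters of a list with H3K4me3 in both treatments, and the share of 34.5% over all such promoters is the background. Lists of developmental and tissue genes lay far above it. Of 66 promoters of developmental transcription factors, 61 were negative, or 92.4% (83.5 to 96.7), as were 14 of 15 of cadherins and protocadherins, 80 of 93 of morphogens, guidance cues and their receptors (86.0%), 60 of 77 of ion channels (77.9%) and 33 of 48 of matrix, protease and integrin genes (68.8%). Most genes of these lists lacked H3K4me3, which was in both treatments at 66 of 275 promoters of developmental transcription factors and at 77 of 324 of ion channels. The solute carriers, which move nutrients and ions across membranes, had 116 of 259 (44.8%), and G protein-coupled receptors 47 of 97 (48.5%).

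Housekeeping lists lay far below. Of 54 promoters of replication-dependent histone genes none was negative (interval up to 6.64%), and of 92 of ribosomal protein genes only that of Rpl35 was. Proteasome genes had 4 of 50, respiratory chain and mitochondrial ribosome genes 21 of 195 (10.8%), spliceosome genes 7 of 65 (10.8%) and cell cycle genes 30 of 138 (21.7%). Near the background were Zfp zinc finger genes with 158 of 425 (37.2%), interferon-stimulated genes with 9 of 27 and predicted genes with Gm or Rik names with 452 of 1162 (38.9%). MicroRNA genes had 61 of 150 (40.7%) and small nucleolar and nuclear RNA genes 20 of 68 (29.4%). Small RNAs often sit inside other genes, and the 20 of the latter list included Snord93, Snora61, Snord99 and Snord4a, whose H3K4me3 peaks all reached Pol II or H3K27ac beyond the window. With no such peak allowed within 5 kb, only 1.47% of that list was negative, against a background of 30.3%.

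**Figure D4:**
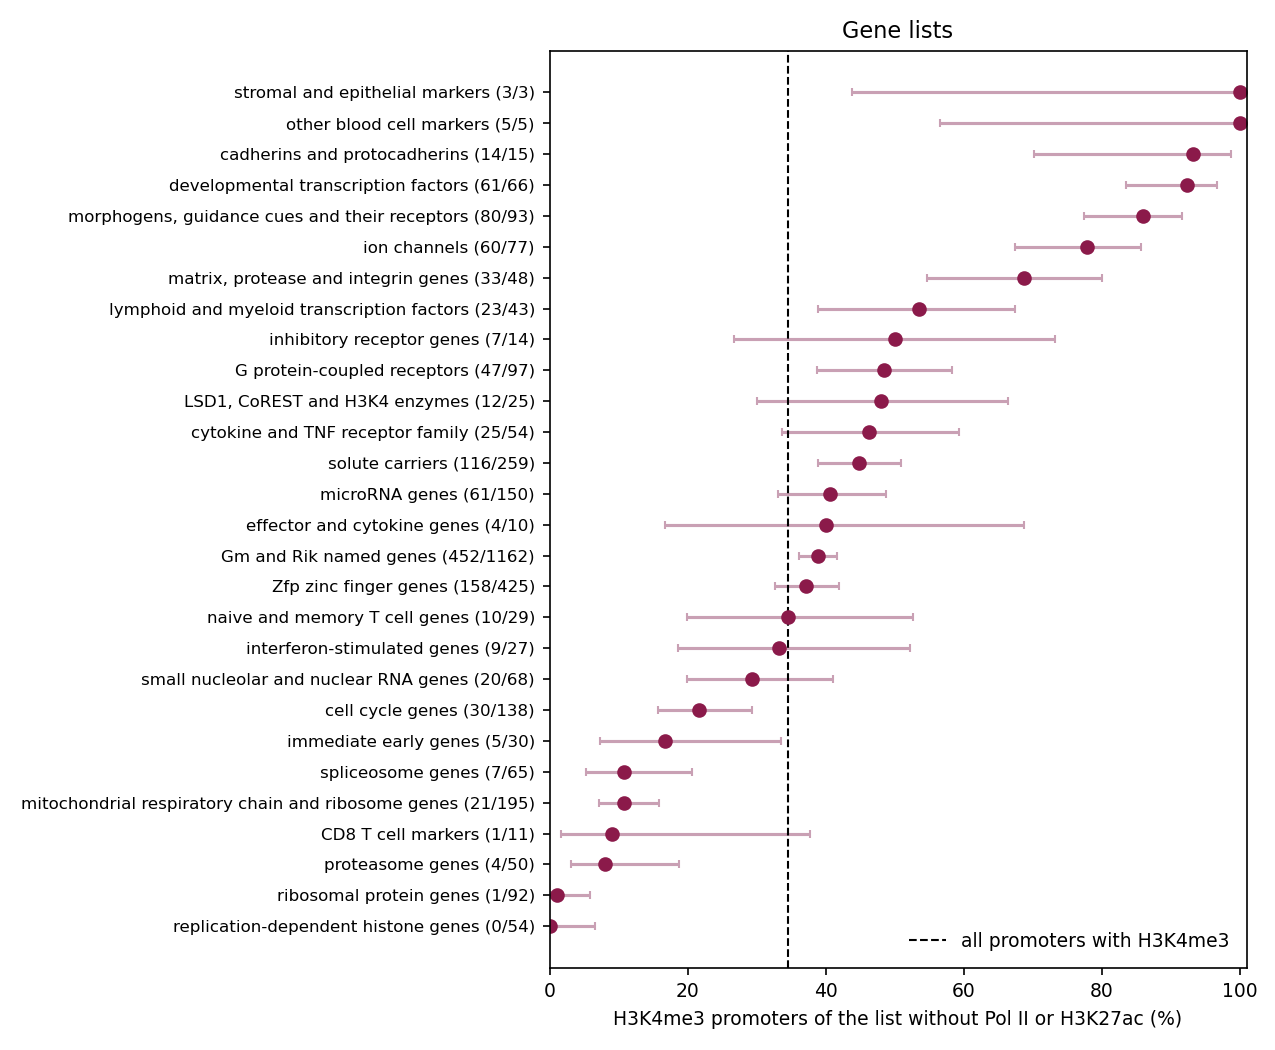
Share of promoters with H3K4me3 in both treatments that were negative (%), for 28 gene lists, with Wilson 95% intervals. Numbers after each name are negative promoters and all promoters of the list with H3K4me3, and the dashed line is the share over all promoters, 34.5%. Below the 8 promoters of the 2 marker lists at 100%, cadherin, developmental, morphogen and channel genes lie highest, and histone, ribosomal protein and proteasome genes at the bottom.

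Of the 61 negative promoters of developmental transcription factors, 53 had H3K4me1 in Veh cells (86.9%, against 64.7% of all negative promoters), 56 had H3K4me2 (91.8% against 85.0%) and 36 had LSD1. Their median H3K4me3 width was 688 bp. By the geometric mean of both folds the strongest was Hoxa4, a homeobox gene of body patterning, with an H3K4me3 fold of 9.65 in Veh and 8.17 in GSK cells and with all 3 other peaks in both treatments. Foxa3, which encodes a liver factor, had H3K4me3 at 9.88 and 6.82 and LSD1 at 8.74 and 6.01.

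Among morphogens and guidance cues, 75 of 80 had H3K4me2 in Veh and 76 in GSK cells, and 54 and 64 had LSD1. Unc5a, a netrin receptor, had H3K4me3 folds of 9.02 and 8.58, Sema4f 7.53 and 9.64, Tgfbr3, a co-receptor of TGF-β, 8.32 and 7.60, and Efna4 7.65 and 8.19. LSD1 was called at Unc5a in GSK cells only (4.84), at Sema4f (3.79) and Efna4 (3.62) in Veh cells only, and at Tgfbr3 in both (3.85 and 4.40). Of 60 ion channel promoters, 51 had H3K4me1 and 29 LSD1 in Veh cells. The chloride transporter genes Clcn7 and Clcn5 and the potassium channel genes Kcnk6 and Kcnh8 had H3K4me3 folds between 6.89 and 9.59. Matrix and integrin genes had H3K4me1 at 29 of 33, with Adamts7 (7.80 and 7.30), Col23a1 (7.77 and 6.37), Itga6 (7.63 and 6.39) and Col27a1 (6.72 and 6.94) leading by H3K4me3. LSD1 was called at all 4 in both treatments.

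Cadherin genes differed in their marks. In Veh cells 5 of 14 had H3K4me1 (35.7%), 7 had H3K4me2 (50.0%) and 5 had LSD1, all below the shares over all negative promoters, with a median width of 542 bp. Cdh24, Celsr2 and Cdh1, the E-cadherin gene, had H3K4me1 and H3K4me2 in both treatments. The protocadherin gene Pcdhgb6 had H3K4me2 (5.23 and 5.51) with no H3K4me1 or LSD1. Solute carriers had H3K4me2 at 105 and H3K4me1 at 90 of 116. The narrow, strong H3K4me3 peaks at the folate transporter gene Slc46a1 (11.7 and 11.6), the sialic acid transporter gene Slc17a5 (11.7 and 10.9) and Slc38a7 (11.4 and 10.6) had no LSD1, and Slc25a17 (10.6 and 10.3) had it in GSK cells only. Among G protein-coupled receptors, Gpr160, Gpr157 and Gpr135 carried LSD1, H3K4me1 and H3K4me2 in both treatments, while Gpr85 had LSD1 in GSK cells only. Of the 158 promoters of Zfp genes, many of whose proteins repress transposons, 91 had LSD1 (57.6%, against 60.8% of all negative promoters) and 122 had H3K4me2 (77.2% against 85.0%) in Veh cells. Zfp606 (12.1 and 11), Zfp759 (12 and 10.9), Zfp85 (11 and 11.4) and Zfp420 (10.9 and 11.6) led by H3K4me3 fold.

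Few housekeeping promoters were negative, and some of these had transcription marks close by. Rpl35, for a protein of the large ribosomal subunit, had a low H3K4me3 fold of 2.96 and 3.19 and no other peak, with Pol II at 2689 bp. The proteasome gene Psmb3 had Pol II at 2837 bp, while Psmd9 (H3K4me3 fold 9.72 and 9.63), Psma1 (6.86 and 6.86) and Psmd10 (6.13 and 6.70) were 15123 bp or more from any Pol II or H3K27ac peak. Ndufaf6, Mrpl11, Mrpl28 and Cox19 of the mitochondrial list had H3K4me3 folds from 8.56 to 10.3. The histone mRNA processing gene Lsm11 and Srsf12 and Prpf40b of the spliceosome list had LSD1 and H3K4me2 in both treatments, and Lsm10 had LSD1 in GSK cells only (4.39). In the cell cycle list, the cilium-related kinase Cdk20 and the kinesins Kif3a and Kif7 had H3K4me3 folds of at least 9.26. Kif14, a kinesin of cytokinesis, had a fold of 9.96 and 9.73, and its peak reached Pol II and H3K27ac beyond the window, at 1148 and 1150 bp.

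Genes of T cell function were also found among negative promoters. The only one of the CD8 T cell markers was Cd8a, a subunit of the CD8 co-receptor (chromosome 6, TSS at 71373427, plus strand). Its H3K4me3 peak was 2752 and 2760 bp wide with a fold of 3.50 in Veh and 3.24 in GSK cells. H3K4me1 was called in both treatments (3.43 and 2.54), LSD1 in Veh cells only (4.64) and H3K4me2 in neither. The nearest Pol II and H3K27ac peaks were 15509 and 15808 bp away, and CD8 is the surface protein by which the cells were named. Of the other 9 marker genes, each had a TSS with Pol II or H3K27ac.

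Of 29 promoters of naive and memory T cell genes, 10 were negative (34.5%, 19.9 to 52.7), the same share as the background. They were at Tcf7, Lef1, Foxp1, Il7r, S1pr1, Il6ra and Cxcr3. The share fell to 17.2% when no Pol II or H3K27ac was allowed within 5 kb, where the background was 30.3%. With a required overlap of 200 bp it rose to 55.2%, against a background of 37.2%. Both TSSs of Tcf7, which encodes the memory and progenitor factor TCF-1, were negative. At its TSS at 52282595 on chromosome 11 (minus strand), H3K4me3 was 3.20 and 2.95, H3K4me2 3.65 and 5.57, and H3K4me1 (2.92) and LSD1 (4.01) were called in GSK cells only. Lef1, a related factor, had H3K4me3 at 2.72 and 2.53, with LSD1 (2.88) and H3K4me2 (2.46) in Veh cells only, and 2 of its 4 TSSs had Pol II or H3K27ac. Il7r, the IL-7 receptor gene, had H3K4me3 (3.42 and 3.64) and none of the 3 other peaks, and its Pol II peak lay 1255 bp from the TSS. S1pr1, the receptor for exit from lymph nodes, gained an LSD1 call in GSK cells (4.41) and kept H3K4me1 (4.86 and 4.57) and H3K4me2 (3.58 and 3.64). Il6ra had LSD1 in both treatments (6.16 and 7.35), as did the chemokine receptor gene Cxcr3 (4.36 and 4.98). Foxp1 had LSD1 in GSK cells only (4.85). Their H3K4me3 peaks were wide, with a median of 2440 bp over the 10 promoters in Veh cells, against 930 bp over all negative promoters.

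Of 14 promoters of inhibitory receptor genes, 7 were negative (50.0%, 26.8 to 73.2), an interval that included the background. At Havcr2 (TIM-3), H3K4me3 was 4.10 and 4.45, H3K4me1 3.27 and 2.45, and LSD1 was called in Veh cells only (3.83). At Lag3, H3K4me3 was 3.93 and 4.17, H3K4me2 was called in Veh cells only (3.74), and no LSD1 or H3K4me1 peak was called. Entpd1, which encodes the ectonucleotidase CD39, had both TSSs negative. The stronger had H3K4me3 at 10.5 in Veh and 9.29 in GSK cells, H3K4me2 at 5.46 and 5.88, and LSD1 in GSK cells only (4.46). At the other Entpd1 TSS, LSD1 was called in Veh cells only. Of the 7 promoters, 4 had LSD1 in Veh and 3 in GSK cells. The study described less Pol II at Pdcd1 in GSK cells and a similar pattern at Entpd1. It also measured CD39 and TIM-3 protein in such cells, so these negative promoters are not shown to be silent. Nt5e, which encodes CD73, had H3K4me3 at 5.26 and 4.06 over 1270 and 2489 bp, and LSD1 in both treatments (2.91 and 3.89). Cd200r1 had H3K4me3 at 7.67 and 5.79, with LSD1 (4.30) and H3K4me2 (4.11) in Veh cells only. Cd160 had H3K4me3 at 4.94 and 4.76, with LSD1 in GSK cells only (4.05). H3K4me3 fold was lower in GSK cells at 4 of these 6 genes and higher at Havcr2 and Lag3, against 3235 of all 5358 negative promoters higher in GSK cells, and with 1 library of each these differences were not measured against replicate spread.

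Of 10 promoters of effector and cytokine genes, 4 were negative (40.0%, 16.8 to 68.7). LSD1 was called at all 4 in Veh cells, and at 3 of them in GSK cells. Ifng had LSD1 at 5.54 in Veh and 3.60 in GSK cells, H3K4me3 at 3.71 and 3.93 and H3K4me1 at 3.66 and 3.01, and no H3K4me2. Csf2, the GM-CSF gene, had LSD1 in Veh cells only (4.37), with H3K4me3 at 5.12 and 5.04 and H3K4me1 at 4.08 and 3.84. Ccl4, a chemokine gene, had LSD1 at 4.31 and 5.37, and H3K4me2 in Veh cells only (4.04). Tnfsf11, the RANKL gene, had LSD1 at 4.29 and 4.16, H3K4me2 at 4.51 and 5.61, and H3K4me1 in GSK cells only (3.60). These promoters were CpG-poor, with a median CpG ratio of 0.263, as the Ifng sequence above shows.

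Of 30 promoters of immediate early genes, 5 were negative (16.7%, 7.34 to 33.6). This share moved to 33.3% with lists of equal length, near the background of 36.6% in that case. Fosl1 and Atf3 had LSD1, H3K4me1 and H3K4me2 in both treatments, as did the negative TSS of Egr2, the other 5 TSSs of which had Pol II or H3K27ac. Egr4 had only H3K4me3 (4.22 and 5.35) and H3K4me1. Nr4a3 had a wide, low H3K4me3 peak, and LSD1 in GSK cells only (3.60), with H3K27ac at 1455 bp.

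**Figure D5:**
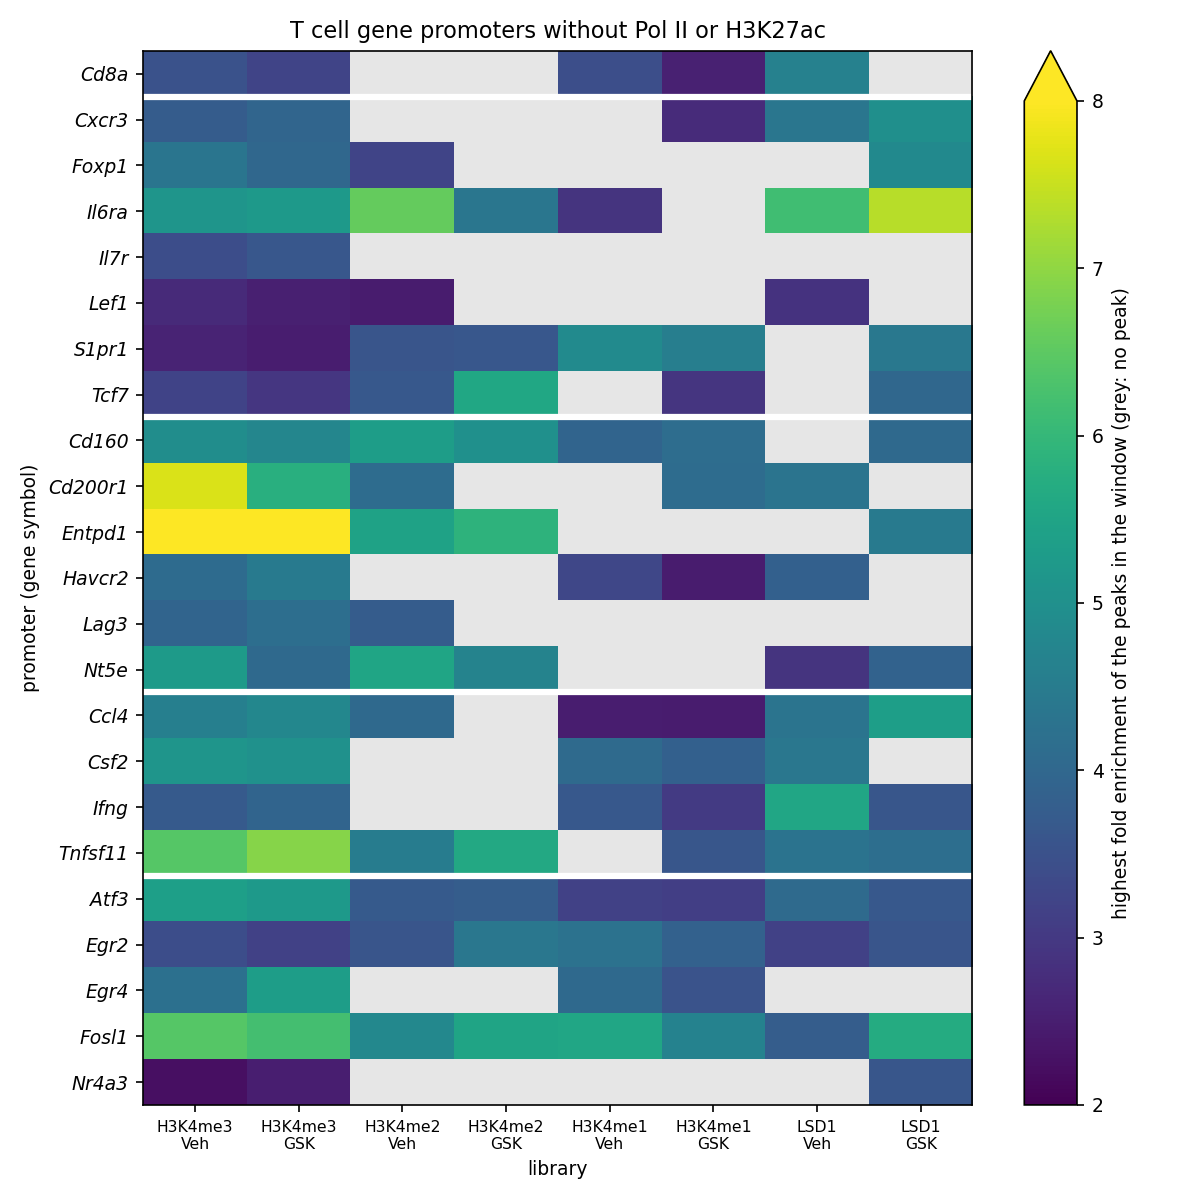
Highest fold enrichment (colour, with folds above 8 drawn as 8, and grey where no peak was called) of the peaks of 4 antibodies in Veh and GSK cells at the negative promoters of T cell genes, 1 TSS per gene. White lines part the lists of CD8 markers, naive and memory genes, inhibitory receptors, effector and cytokine genes, and immediate early genes. LSD1 and H3K4me2 are called in 1 treatment only at many of these genes, while H3K4me3 is present in all columns as the rule required.

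Transcription factors of lymphoid and myeloid cells had 23 of 43 promoters negative (53.5%, 38.9 to 67.5). Taken per gene, the share was 43.8%, against a background of 33.4%. Of the 23, 15 had LSD1 in Veh and 16 in GSK cells, 20 and 18 had H3K4me2, and 10 and 16 had H3K4me1. Tox, a factor of exhausted T cells, had both TSSs negative, and at the stronger H3K4me3 was 4.19 and 4.81, LSD1 5.06 and 5.60 and H3K4me2 3.83 and 4.71. Zeb2, a factor of terminal effector cells, had 4 of its 7 TSSs negative and none with Pol II or H3K27ac. Gata3 (3.19 and 3.13 over 3269 and 3311 bp) and Gfi1 (2.63 and 2.40 over 3763 and 3956 bp) had wide H3K4me3, and LSD1 was called at Gata3 in GSK cells only (4.0). Maf had LSD1 at 4.58 and 6.39, Batf3 at 2.64 and 3.04, and Ikzf4 at 3.89 and 5.11, while Ikzf2 had it in Veh cells only (3.05). Zbtb7b, the factor of CD4 T cells, had no LSD1 peak and H3K4me1 in both treatments (2.34 and 2.3). Runx1 and Runx3 each had 1 negative TSS and 1 with Pol II or H3K27ac.

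Of the myeloid and other lineage factors in the same list, Cebpb (LSD1 5.88 and 6.99), Cebpd (5.92 and 6.88) and Hhex (6.15 and 6.54) had LSD1 and H3K4me2 in both treatments. Tal1, a factor of blood stem cells, had LSD1 in Veh cells only (4.20), and Bcl11a had it in neither treatment. Among the markers of other blood cells, Cebpa had LSD1 at 4.14 and 4.68 and Epor, the erythropoietin receptor gene, at 5.47 and 4.57. Klf1, an erythroid factor, had LSD1 in GSK cells only (6.71), as did Zbtb46 (6.93), and Cd79b, a B cell receptor subunit, had none. H3K4me3 at these 5 was between 4.12 and 7.65. The 14 other marker genes of blood cells, among them Pax5 and Lyz2, had no promoter with H3K4me3 in both treatments. Spi1, also among them, had Pol II and H3K27ac peaks at its TSSs. The part of other cells in these peaks was not tested. The epithelial genes Epcam (LSD1 7.02 and 8.92) and Cdh1 (3.85 and 4.05) had LSD1, and Krt18 had none.

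The list of LSD1, CoREST and H3K4 enzyme genes had 12 of 25 promoters negative (48.0%, 30.0 to 66.5), an interval that included the background. With no Pol II or H3K27ac within 5 kb the share was 32.0%, against a background of 30.3%. LSD1 was called at 10 of the 12 in Veh and at 11 in GSK cells, against 60.8% and 70.1% of all negative promoters. Kdm1a, which encodes LSD1 (chromosome 4, TSS at 136602723, minus strand), had LSD1 at 4.40 and 5.96, H3K4me2 at 4.33 and 4.37 and H3K4me3 at 6.33 and 6.86. Rcor2 had LSD1 at 8.41 and 6.68 and H3K4me1 at 3.77 and 3.62, and Hmg20b, a CoREST subunit, had all 3 of its TSSs negative, with LSD1 at 4.47 and 3.91 at the strongest. Rest, the repressor that recruits CoREST, had LSD1 at 4.74 and 6.77. The H3K4 methyltransferase gene Kmt2a had LSD1 at 3.50 and 6.26, and its relative Kmt2b had it in GSK cells only (4.84). Zmym2, which encodes a CoREST partner, had LSD1 at 5.80 and 5.62, with Pol II 1137 bp from the TSS. The demethylase gene Kdm5b had LSD1 at 4.56 and 3.92 and Pol II 3193 bp away. Phf21a, for a reader of unmethylated H3K4, had no LSD1 peak and Pol II 2020 bp away.

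Receptors of cytokines and of the TNF family had 25 of 54 promoters negative (46.3%, 33.7 to 59.4). LSD1 was called at 9 of the 25 in Veh cells, or 36%, against 60.8% of all negative promoters. Tnfrsf22 (H3K4me3 10.6 and 10.9) and Tnfrsf10b (7.20 and 8.08), both decoy or death receptors for TRAIL, had no LSD1, Tnfrsf23 had it in GSK cells only (3.24), and Tnfsf9, the gene of the 4-1BB ligand, had it in both (4.10 and 4.36). Interferon-stimulated genes were CpG-poor among negative promoters, with a median ratio of 0.199, and 2 of 9 had LSD1 in Veh cells (22.2%, against the same 60.8%). Gbp2 and Oas1a had no LSD1 peak, Oasl2 had it in Veh cells only (4.41), and Ifih1, an RNA sensor, had it in both treatments (4.44 and 6.87). Of 61 microRNA promoters, 29 had LSD1 in Veh cells (47.5%), with folds of 8.86 and 7.19 at Mir7093 and 4.92 and 6.90 at Mir6538, while Mir713 and Mir6936 had none.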

How the data were processed

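ChIP-seq of 6 antibodies in Veh and GSK cells gave 12 peak lists from 12 libraries. The 4 input samples were not analysed here. The authors mapped reads to mm10 with Bowtie2, keeping unique matches, removed duplicates with Samtools and called peaks in each library with MACS2 at a p cutoff of 0.001. LSD1 and Pol II were called as narrow peaks and histone marks as broad peaks. The authors gave the input data to MACS2 as the control for the calls. To compare signals, they also drew equal read numbers at random from the libraries. The study does not say plainly whether peaks were called on those reads. As deposited by the authors, each peak has a fold enrichment over local background (a ratio) and its −log10 p and −log10 q. The peak lists hold no read counts. The read pairs that the study lists for each library entered no calculation and were only compared between treatments. Unique pairs were fewer in the GSK than in the Veh library for H3K4me2 and H3K27ac, and more for H3K4me1. The part of this in the length of the lists was not tested.

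Peaks were overlapped (1 bp or more) with windows of 1000 bp on either side of each distinct TSS, and a promoter took the highest fold and the widest peak of a list. The CpG ratio is observed over expected CpG in the window. Sequences came from GRCm38.p6, and 4037 negative promoters matched an entry of the RefSeq promoter table. Python 3.11.15, pandas 2.3.3, NumPy 2.4.6 and matplotlib 3.10.9 were used, and the scripts were tested on simulated data.

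With 1 library for each antibody and treatment no test was made. Wilson intervals (95%) are given for shares, Newcombe intervals for differences of shares, and for a net change an interval from the share of GSK-only among changed promoters. Named genes were the extremes of H3K4me3 fold and width, the highest folds of LSD1, H3K4me1 and H3K4me2 by state, the members of short gene lists (1 TSS per gene), and the 4 promoters with the highest H3K4me3 of each longer list. The promoters and the 28 gene lists were chosen with earlier results of these data known. Alternatives were lists of equal length, other windows, overlaps and thresholds, genes in place of TSSs, and coding TSSs alone. A further 3 were added after the data had been seen, namely the whole H3K4me3 peak free of Pol II and H3K27ac, 1 promoter per peak, and the Veh lists alone. Some promoters that the rule names are not reported here.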

Additional observations from a re-analysis of the deposited data

How the results depend on the processing

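Of 110 values under alternatives, 79 stayed within their 95% interval or, for the number of negative promoters (4283 to 5917), within 1.5 times. The Veh share of H3K4me1, negative minus positive promoters, was 18.3 percentage points with −log10 q of at least 5 for histone lists, 30.5 with an overlap of 200 bp, 25.4 with lists of equal length and 34.3 with windows of 500 bp. For H3K4me2 it was 29.2, 22.5, 28.2 and 28.0 in that order, and 21.6 with no Pol II or H3K27ac within 5 kb. For LSD1 it was −7.52 with that distance and −9.29 with the whole H3K4me3 peak free of Pol II and H3K27ac. LSD1 retention was −2.58 with genes in place of TSSs. The net change of H3K4me1 in negative promoters was 9.56 with −log10 q of at least 5, 6.48 with windows of 500 bp and −0.0533 (−1.14 to 1.03) with lists of equal length, where the sign turned and the interval included 0. That of H3K4me2 was −17.1 with −log10 q of at least 5, −12.5 with the distance of 5 kb and 1.44 with lists of equal length, where it reversed. Equal length removes the difference in list size by construction. The net change of LSD1 was 11.6 with −log10 q of at least 2 for LSD1 and Pol II. The median H3K4me3 width was 954 bp in that case, 976 with −log10 q of at least 5, 903 with 1 promoter per peak, 956 with 200 bp, 952 with Veh lists alone, 910 with genes and with the whole peak free, 967 with equal length, 912 with 5 kb and 953 with windows of 500 bp. The median CpG ratio was 0.607 with 5 kb and 0.608 with windows of 500 bp. The cause of the other shifts was not tested.

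With 1 library for each antibody and treatment, no difference between treatments can be set against replicate spread. A promoter without a peak is one with no signal past the cutoff, not one shown to lack the protein. Peak lists of different length shift every share at once. No paired analysis was possible because each antibody and treatment had 1 library.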

Other observations

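Genes of germ cells stood out among the highest LSD1 folds, and a list of 36 such genes was drawn up after those values had been seen, so it supports nothing by itself. Of its 47 promoters, 8 had H3K4me3 in both treatments and 7 of these were negative, where the background was 34.5%. They were at Boll, Dazl, Ddx43, Exd1, Meiob, Stag3 and Tdrkh. The other was a further TSS of Boll, with Pol II. LSD1 was called at 6 of the 7 in Veh cells and at all 7 in GSK cells, against 60.8% and 70.1% of all negative promoters. The median Veh fold of the 6 was 10.0. High LSD1 folds among negative promoters led to the list. Neither this value nor the counts of LSD1 and of negative promoters can therefore be set against other promoters. In Veh and GSK cells the LSD1 fold was 21.2 and 21.7 at Exd1 (a peak shared with Chp1), 12.4 and 15.4 at Boll and 11 and 13.5 at Ddx43, a germ cell RNA helicase. It was 9.06 and 8.42 at Tdrkh, a piRNA pathway gene, 7.20 and 6.13 at Dazl, which encodes a germ cell RNA-binding protein, and 4.87 and 4.68 at Stag3, a meiotic cohesin subunit. Meiob, a gene of meiotic recombination, had it in GSK cells only, at 4.70. H3K4me2 was called at all 7 and H3K4me1 at 6 in Veh cells, against 85.0% and 64.7% of all negative promoters. With 7 promoters, these counts do not set the list apart.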
